A study of Mus musculus with 9 samples.

Results

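Acetylcholine-releasing neurons and the motor neurons of the cranial nerves share a small set of genes, and 9 of them were followed here in the midbrain of mice with 3 Dot1l genotypes: Chat, Slc18a3, Slc5a7, Ache, Isl1, Prph, Calca, Calcb and Ecel1. They were taken as the rows whose Ensembl identifier carries one of these symbols, which gave 9 of the 47729 genes in the count tables. Each of the 9 passed the filter on low counts, which kept 17671 genes. Total RNA was sequenced from the dissected dopamine area of the midbrain at P180, in 3 libraries per genotype and 9 in all. According to the methods of the study each library pooled 3 mice.

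All mice, controls included, were C57/Bl6 animals with 1 copy of Pitx3-Cre and the reporter Rosa-lox-stop-lox-Yfp. The genotypes were Dot1l(+/+), with no floxed allele, Dot1l(fl/+), with 1, and Dot1l(fl/fl), with 2. Cre is made from the Pitx3 locus, so that in the midbrain it acts in dopamine neurons only, while the dissected tissue also holds other neurons and glia. The floxed part is an exon, and counts over the whole gene do not measure its loss: Dot1l itself had a CPM (counts scaled for library depth) of 60.6 to 85.2 in the 9 libraries, with no separation of the genotypes. The series text describes sorted embryonic cells, but each sample label gives P180 and dissected tissue, and the labels were followed. In pieces of tissue, fewer cells of a type and less RNA per cell cannot be told apart.

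Acetylcholine is made from choline by choline acetyltransferase (Chat), packed into vesicles by the transporter Slc18a3 (VAChT), and cleaved in the synaptic cleft by acetylcholinesterase (Ache), after which choline is taken up again by Slc5a7 (CHT1). Isl1 is a LIM homeodomain factor of motor neurons, which several other neuron types also express. Prph encodes peripherin, an intermediate filament of neurons that project into peripheral nerves. Calca and Calcb encode the alpha and beta forms of the peptide CGRP, which motor and sensory neurons release. Ecel1 (DINE) is a neuronal membrane endopeptidase that rises in injured neurons and is needed for motor axons to branch in muscle. In the midbrain, most of these genes mark the oculomotor and trochlear nuclei, which lie close to the dopamine neurons.

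Promoters are shown for Isl1, Ecel1 and Prph, which are the genes that had an unadjusted p under 0.05 in a comparison below and an entry in the RefSeq promoter table (GRCm38.p6). Only the stretch before the gene start in both RefSeq and GENCODE M21 is printed, 5′ to 3′ on the strand of the gene. It covers chr13:116309690-116309938 (minus strand) for Isl1, chr1:87156522-87156606 (minus strand) for Ecel1 and chr15:99054924-99055173 (plus strand) for Prph. Capitals mark TATAAA, the TATA box, and CGTCA, the core of a cAMP response element, on either strand.
Isl1: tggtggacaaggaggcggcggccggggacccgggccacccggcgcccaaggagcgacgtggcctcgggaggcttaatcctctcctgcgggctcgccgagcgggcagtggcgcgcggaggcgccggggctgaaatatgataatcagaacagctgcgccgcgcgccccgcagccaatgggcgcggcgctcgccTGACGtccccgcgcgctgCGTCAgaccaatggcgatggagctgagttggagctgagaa
Ecel1: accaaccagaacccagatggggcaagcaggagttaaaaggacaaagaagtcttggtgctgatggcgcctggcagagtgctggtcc
Prph: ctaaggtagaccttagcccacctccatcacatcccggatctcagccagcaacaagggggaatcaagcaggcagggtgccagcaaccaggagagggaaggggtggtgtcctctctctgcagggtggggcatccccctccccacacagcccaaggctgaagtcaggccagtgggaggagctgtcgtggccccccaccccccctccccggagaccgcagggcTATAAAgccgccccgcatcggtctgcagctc

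In all, 4 motifs were searched on both strands, and the choice of which of them to capitalise was made after the matches were seen. In 32851 promoters, the 250 bases before the start held TATAAA in 12.4%, TAATTA in 4.84%, CANNTG (the E-box) in 66.2% and CGTCA in 17.8%. The 249 bases of Isl1 held CGTCA on both strands and CANNTG, which 17.7% and 66.1% of promoters hold in a window of that length. The 85 bases of Ecel1 held only CANNTG, which 31.8% of promoters hold in that length. The 250 bases of Prph held only TATAAA. An E-box can overlap CGTCA, since both may use the letters CA. A match is a description of these letters and not of a site in use.

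The 9 genes spanned a wide range of levels. Compared per kilobase of exon, as the mean over the 9 libraries, Ache was highest with 35.6 CPM per kb, followed by Ecel1 with 5.22, Calca with 2.46 and Prph with 2.08. Calcb had 0.471 CPM per kb, Slc5a7 0.429 and Isl1 0.304. Chat, with 0.136, and Slc18a3, with 0.131, were lowest. The ranges over libraries separated Ache (31.4 to 37.7 CPM per kb) from Ecel1 (3.85 to 7.48), and Ecel1 from Calca (1.81 to 2.86). Calca and Prph (1.35 to 2.80) overlapped, and Calcb (0.221 to 0.755) lay below both. There was overlap for each pair of neighbours among Calcb, Slc5a7, Isl1, Chat and Slc18a3. Ache is also expressed by neurons that do not use acetylcholine, and its place far above Chat is a difference in level per length and not in protein.

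**Figure D1:**
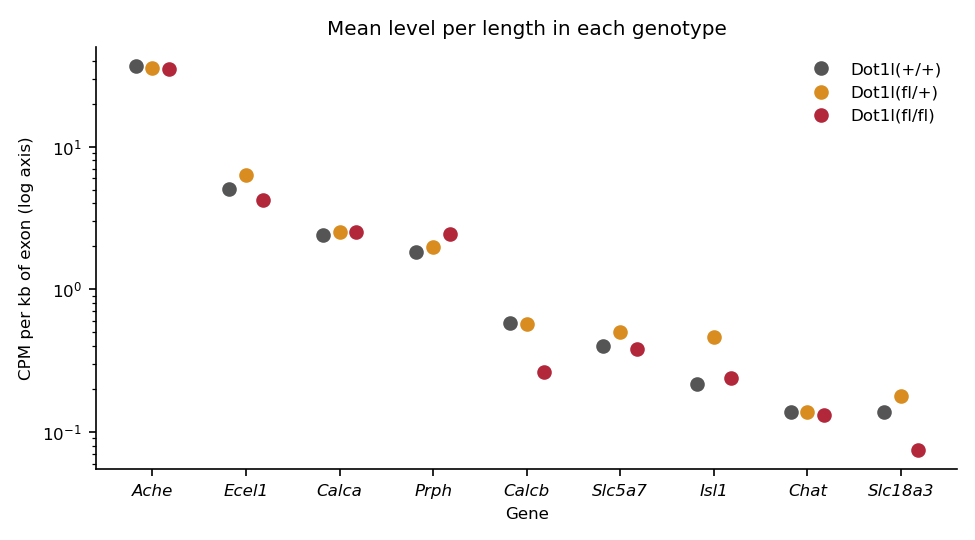
Mean level of each gene per kilobase of exon (CPM per kb, log axis) in the 3 libraries of each genotype. Ache (35.6 CPM per kb over all libraries) stands above the rest and Chat (0.136) and Slc18a3 (0.131) are lowest.

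Low counts limit several of these genes. Slc18a3 had 70 counts in the 9 libraries together, Calcb 132, Chat 138 and Isl1 263, against 35748 for Ache. Slc18a3 lies at chr14:32462438-32464850 within the Chat locus (chr14:32408203-32465989) on the same strand, without sharing an exon base with Chat in GENCODE M21 (GRCm38). Ache (chr5:137287519-137294466) shares 98 exon bases with Gm42456 on the opposite strand. Whether the counting used strand is not given in the sources used here, although the library kit was directional. Calca and Calcb lie on chromosome 7 and are close relatives, but only 0.952% of the 50-base words of Calcb occur in Calca, so few reads could be assigned to the wrong one.

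Other genes of motor neurons had unequal levels. Among transcription factors, Phox2a had 3 counts in all 9 libraries together, Isl2 4, Mnx1 3 and Tbx20 6, while Lhx3 had 100, Nkx6-1 467, Tbx2 550 and Tbx3 1031, which other cells also express. Chodl, Mmp9 and Esrrb, which mark kinds of motor neurons among other cells, had 340, 457 and 2390 counts. Of other sources of these genes, the 8 markers of the medial habenula, a cholinergic nucleus, had a summed level of 84.9 to 99.3 CPM in Dot1l(+/+), 76.0 to 96.0 in Dot1l(fl/+) and 79.1 to 88.4 in Dot1l(fl/fl). Most of it came from Nwd2, Lrrc55 and Irx2, with means of 37.4, 22.5 and 17.1 CPM in Dot1l(+/+), while Chrna3 had 5.32, Pou4f1 5.28, Tac2 1.32, Chrnb4 0.902 and Gpr151 0.461 CPM. Chrna3, a nicotinic receptor subunit, was the only one of the 8 with an unadjusted p under 0.05, with a mean of 3.82 CPM in Dot1l(fl/fl), a log2 fold change of -0.47 ± 0.17 (SE; edgeR, unadjusted p = 0.0153, adjusted p = 0.999) against Dot1l(+/+) and of -0.38 ± 0.17 (SE; edgeR, unadjusted p = 0.0437, adjusted p = 0.762) against Dot1l(fl/+). Of all genes, 3.93% had an unadjusted p under 0.05 between Dot1l(fl/fl) and Dot1l(+/+), and 6.48% between Dot1l(fl/fl) and Dot1l(fl/+). Lhx8, of forebrain cholinergic neurons, had 7 counts and Gbx1 21. The 9 genes are called here by their names and not by a cell type, since Phox2a, Isl2, Mnx1 and Tbx20 were at or near 0.

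Library totals were 16422135 to 28403218 counts, and the lowest was a Dot1l(fl/fl) library. The 8 dopamine neuron markers together had 616 to 679 CPM in Dot1l(+/+), 478 to 624 in Dot1l(fl/+) and 464 to 495 in Dot1l(fl/fl). Libraries 1 and 3 of Dot1l(fl/+) stood apart in several hypothalamic genes and, by less, in the summed level of 4 thalamus markers. That sum was 667 and 681 CPM there, against 489 to 614 in the other 7 libraries. As means of Dot1l(fl/+) and Dot1l(+/+), Prkcd had 149 and 120 CPM, Calb2 134 and 126 and Rora 194 and 191, while Tcf7l2 had 136 and 145. Pmch, the precursor of melanin-concentrating hormone, had 99.4 and 49.6 CPM in libraries 1 and 3 of Dot1l(fl/+), against 0.472 to 7.24 in the other 7 libraries. The summed level of the 6 hypothalamus markers was 4.94 to 12.3 CPM in Dot1l(+/+), 4.42, 61.1 and 126 in the Dot1l(fl/+) libraries from lowest to highest, and 4.74 to 6.73 in Dot1l(fl/fl). Of markers of the arcuate nucleus, Pomc had 2.12 and 2.14 CPM in those 2 libraries and 0.730 to 1.69 in the other 7, while Agrp reached no more than 4 counts in a library. Sim1, of the paraventricular nucleus, had a mean of 2.73 CPM in Dot1l(fl/+), 3.17 in Dot1l(+/+) and 3.05 in Dot1l(fl/fl).

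No gene among the 9 differed between genotypes after adjustment for all genes tested (edgeR quasi-likelihood test, Benjamini-Hochberg adjusted p of 0.05). Neither did any other gene: the share called was 0% in each of the 3 comparisons and 0% in the test of any difference among the 3 genotypes. DESeq2 on all 9 libraries called 0 of the 9 genes in the 3 comparisons, and 7, 3 and 11 of all genes. The results are therefore read below at an unadjusted p of 0.05 as well, next to the share of all 17671 genes that reached it. For Dot1l(fl/+) against Dot1l(+/+), 1 of the 9 genes reached it (Isl1, higher), where 8.39% of all genes did. For Dot1l(fl/fl) against Dot1l(+/+), 2 of 9 did (Prph higher, Calcb lower), where 3.93% of all genes did. For Dot1l(fl/fl) against Dot1l(fl/+), 2 of 9 did (Calcb and Ecel1, both lower), where 6.48% of all genes did. In the test of any difference, 1 of 9 did (Calcb), where 6.44% of all genes did.

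The median log2 fold change of the 9 genes was 0.14 for Dot1l(fl/+) against Dot1l(+/+), with 7 of 9 higher, where the median of all genes was -0.0034. It was -0.06 for Dot1l(fl/fl) against Dot1l(+/+), with 3 of 9 higher, beside 0.0009 for all genes. It was -0.41 for Dot1l(fl/fl) against Dot1l(fl/+), with 2 of 9 higher, beside 0.0015 for all genes. These 3 comparisons share libraries and are not independent. The libraries of 2 genotypes did not overlap for 0 of 9 genes in the first comparison, 2 of 9 in the second and 1 of 9 in the third, where this held for 13.3%, 10.3% and 11.1% of all genes.

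**Figure D2:**
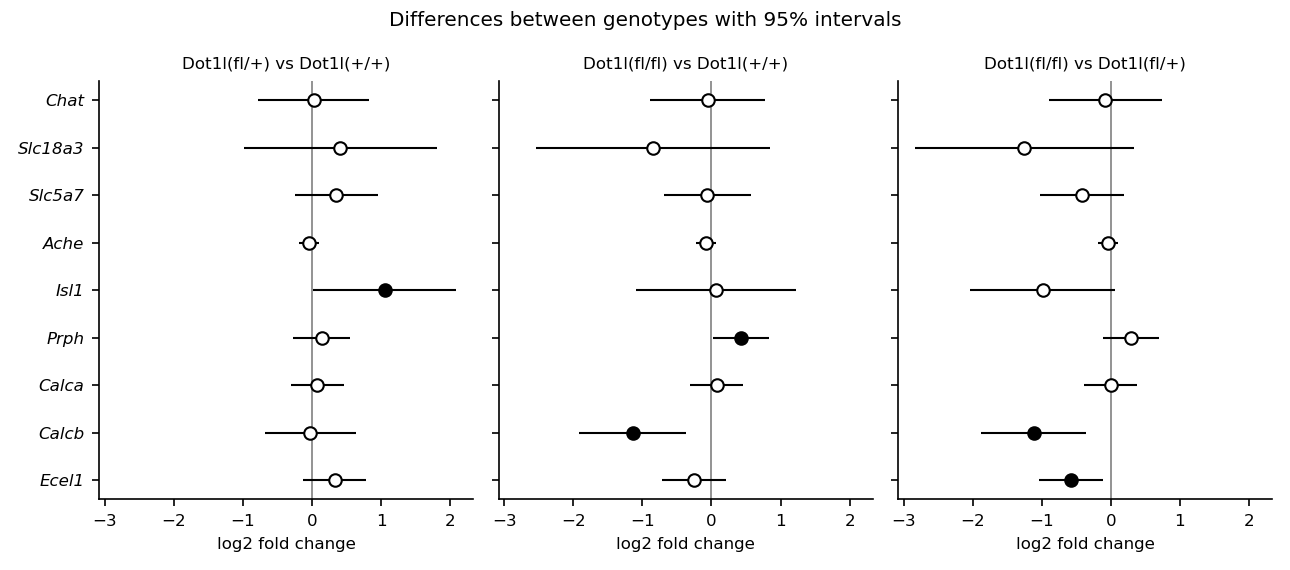
Log2 fold change of each gene in the 3 genotype comparisons, with the 95% interval of the edgeR fit as a line and filled points for an unadjusted p under 0.05. Filled points are Isl1 in the first panel, Prph and Calcb in the second, and Calcb and Ecel1 in the third, and none of them passed adjustment.

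Among the genes of acetylcholine synthesis and storage, Chat had 0.709, 0.902 and 0.338 CPM in Dot1l(+/+), 0.823, 0.565 and 0.572 in Dot1l(fl/+). The Dot1l(fl/fl) libraries had 0.720, 0.474 and 0.667 CPM. The 3 groups overlapped, and both the highest and the lowest library were Dot1l(+/+). The mean was 0.650 ± 0.286 CPM (SD, n = 3) in Dot1l(+/+) and 0.620 ± 0.129 (SD, n = 3) in Dot1l(fl/fl). With 9 to 21 counts per library, the 95% interval of the log2 fold change between these genotypes ran from -0.89 to 0.78, so changes of either sign within that range are not excluded.

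Slc18a3 had 10, 7 and 6 counts in Dot1l(+/+), 12, 19 and 4 in Dot1l(fl/+). The Dot1l(fl/fl) libraries had 9, 0 and 3 counts. The count of 0 in the second Dot1l(fl/fl) library allows up to 0.119 CPM there, for counting error only. Groups overlapped, and the interval of the log2 fold change from Dot1l(+/+) to Dot1l(fl/fl) was -2.54 to 0.85.

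The choline transporter Slc5a7 had 2.65, 2.58 and 1.54 CPM in Dot1l(+/+), 3.21, 3.32 and 2.02 in Dot1l(fl/+), while Dot1l(fl/fl) had 2.68, 1.38 and 2.43. Its first and second Dot1l(fl/+) libraries were the highest of the 9, but the third fell among the others. The log2 fold change of Dot1l(fl/+) against Dot1l(+/+) was 0.35 ± 0.28 (SE), with an interval of -0.25 to 0.95, and that of Dot1l(fl/fl) against Dot1l(+/+) was -0.06, with an interval of -0.69 to 0.57. Across the 9 libraries the log2 CPM of Slc5a7 varied with that of Slc18a3 (Pearson r = 0.863) and of Chat (r = 0.735), while Chat and Slc18a3 had r = 0.428. These are descriptions over 9 libraries that share dissection and pools of mice.

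Ache, by far the most abundant, was also the most tightly measured. It had 174, 172 and 161 CPM in Dot1l(+/+), 171, 152 and 170 in Dot1l(fl/+), while Dot1l(fl/fl) had 170, 145 and 165. All 3 groups overlapped. The interval of its log2 fold change from Dot1l(+/+) to Dot1l(fl/fl) was -0.22 to 0.07, the narrowest of the 9 genes in that comparison.

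**Figure D3:**
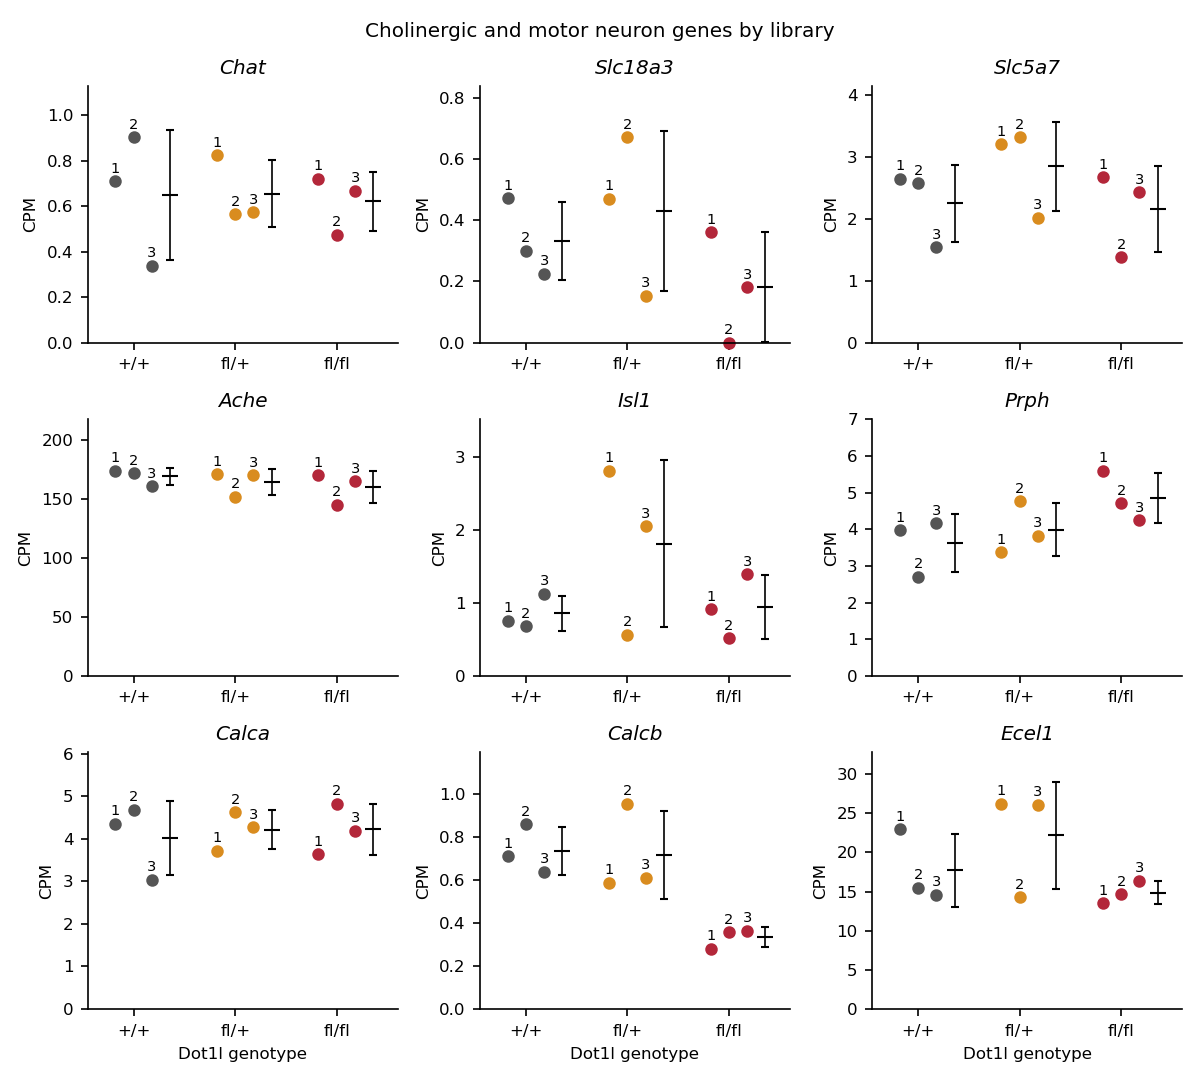
CPM of the 9 genes in each library (points, numbered by replicate, axis from 0), with the mean and SD of the 3 libraries of a genotype to the right of the points. Calcb lies lower in all 3 Dot1l(fl/fl) libraries (0.280 to 0.364 CPM) than in the other 6 (0.588 to 0.954 CPM), and Isl1 and Ecel1 are high in libraries 1 and 3 of Dot1l(fl/+).

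Isl1 gave the only unadjusted p under 0.05 between Dot1l(fl/+) and Dot1l(+/+). It had 2.82, 0.565 and 2.06 CPM in Dot1l(fl/+), against 0.757, 0.687 and 1.13 in Dot1l(+/+) and 0.920, 0.514 and 1.40 in Dot1l(fl/fl). Libraries 1 and 3 of Dot1l(fl/+) were the 2 highest of the 9, library 2 was the second lowest, and the groups overlapped. The log2 fold change was 1.05 ± 0.48 (SE; edgeR, unadjusted p = 0.0468, adjusted p = 0.589), and it was 0.07 in Dot1l(fl/fl) against Dot1l(+/+) (adjusted p = 0.999 by edgeR, interval -1.09 to 1.22). The p was over 0.05 without replicate 1 of Dot1l(fl/+) (log2 fold change 0.59), without replicate 3 of it (0.94), and without Dot1l(+/+) replicate 1 (0.97) or 2 (0.92), and without Dot1l(fl/fl) replicate 1, which shares the fit (1.06).

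Ecel1 had 26.2, 14.3 and 26.1 CPM in Dot1l(fl/+), 23.0, 15.5 and 14.6 in Dot1l(+/+) and 13.5, 14.7 and 16.4 in Dot1l(fl/fl). The same 2 Dot1l(fl/+) libraries were highest, library 1 of Dot1l(+/+) came next, and the second Dot1l(fl/+) library lay within the range of Dot1l(fl/fl). The log2 fold change of Dot1l(fl/fl) against Dot1l(fl/+) was -0.58 ± 0.21 (SE; edgeR, unadjusted p = 0.0173, adjusted p = 0.726). The p was over 0.05 without replicate 1 (log2 fold change -0.44) or 3 (-0.44) of Dot1l(fl/+) and without Dot1l(fl/fl) replicate 1 (-0.51). Against Dot1l(+/+), Dot1l(fl/fl) had a log2 fold change of -0.25, with an interval of -0.72 to 0.21.

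Both genes were high in the 2 libraries with high hypothalamic peptide genes, in which the summed level of the thalamus markers was also highest. In the mean of Dot1l(fl/+), Sim1 and the thalamus marker Tcf7l2 were not above Dot1l(+/+). In libraries 1 and 3 of Dot1l(fl/+), Trh (thyrotropin-releasing hormone) had 4.62 and 3.21 CPM, against 0.301 to 1.01 in the other 7, and Hcrt (orexin) 16.2 and 2.63, against 0 to 0.188. Across the 9 libraries, the log2 CPM of Ecel1 varied with that of Pmch with r = 0.952, and that of Isl1 with that of Trh with r = 0.876. These pairs were chosen after their values were seen. Without both libraries, which leaves 1 Dot1l(fl/+) library whose spread is assumed to be like that of the other groups, the log2 fold change of Dot1l(fl/+) against Dot1l(+/+) was -0.61 for Isl1 and -0.30 for Ecel1, and that of Dot1l(fl/fl) against Dot1l(fl/+) was 0.68 for Isl1 and 0.05 for Ecel1. The part of tissue beyond the midbrain in these differences was not tested.

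**Figure D4:**
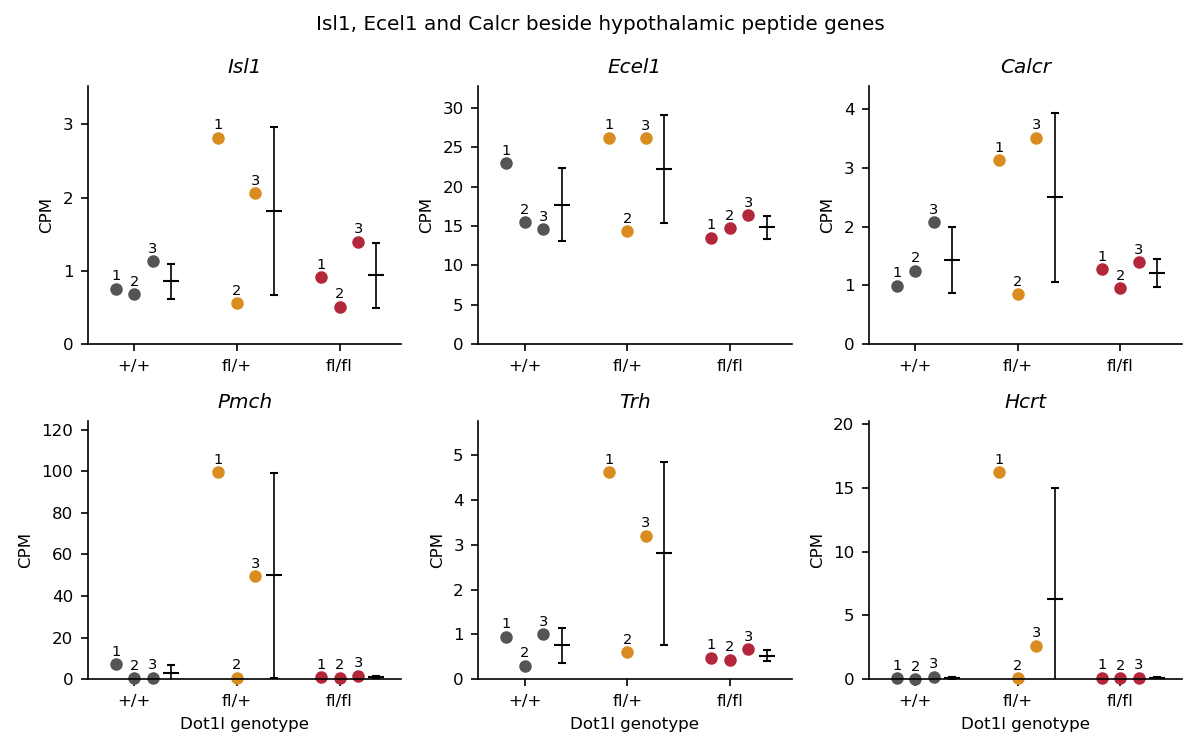
CPM of Isl1, Ecel1 and Calcr above and of the hypothalamic peptide genes Pmch, Trh and Hcrt below, in each library (points numbered by replicate, axes from 0), with the mean and SD of each genotype beside them. Libraries 1 and 3 of Dot1l(fl/+) are highest in all 6 panels, with 99.4 and 49.6 CPM of Pmch.

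Peripherin (Prph) had 3.97, 2.71 and 4.17 CPM in Dot1l(+/+), 3.37, 4.77 and 3.82 in Dot1l(fl/+), while Dot1l(fl/fl) had 5.60, 4.71 and 4.25. The Dot1l(fl/fl) libraries all lay above the Dot1l(+/+) libraries, though the nearest pair, 4.17 and 4.25 CPM, almost touched. The 4 markers of cortex and hippocampus summed to 450, 389 and 503 CPM in Dot1l(+/+), 438, 560 and 450 in Dot1l(fl/+), and 592, 551 and 433 in the Dot1l(fl/fl) libraries, and within each genotype their order over the libraries was that of Prph. Of these, Neurod6, a factor of cortical excitatory neurons, had 65.4 CPM in Dot1l(fl/fl) and 49 in Dot1l(+/+) (log2 fold change 0.42 ± 0.17, SE; edgeR, unadjusted p = 0.0272, adjusted p = 0.999). The part of such tissue in the level of Prph was not tested. The log2 fold change of Prph between Dot1l(fl/fl) and Dot1l(+/+) was 0.43 ± 0.19 (SE; edgeR, unadjusted p = 0.0416, adjusted p = 0.999). The p was over 0.05 with DESeq2 on all 9 libraries (0.0567) or on the 6 compared (0.0614), with the replicate number as a block (0.0569), without Dot1l(+/+) replicate 2 (log2 fold change 0.26) and without Dot1l(fl/fl) replicate 1 (0.31) or 2 (0.46).

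Calcb, which encodes beta-CGRP, had 0.709, 0.859 and 0.639 CPM in Dot1l(+/+) and 0.588, 0.954 and 0.611 in Dot1l(fl/+), but 0.280, 0.356 and 0.364 in the Dot1l(fl/fl) libraries. Each of the 3 Dot1l(fl/fl) libraries lay below each of the other 6. With 7, 9 and 6 counts, the Dot1l(fl/fl) libraries were too low to pass the filter on low counts by themselves. Calcb was kept for testing because of its levels in Dot1l(+/+) and Dot1l(fl/+). The mean was 0.736 ± 0.112 CPM (SD, n = 3) in Dot1l(+/+), 0.717 ± 0.205 (SD, n = 3) in Dot1l(fl/+) and 0.333 ± 0.0464 (SD, n = 3) in Dot1l(fl/fl).

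The log2 fold change of Calcb was -1.14 ± 0.36 (SE) for Dot1l(fl/fl) against Dot1l(+/+), which is 2.20-fold lower (edgeR, unadjusted p = 0.00699, adjusted p = 0.999). Against Dot1l(fl/+) it was -1.11 ± 0.35 (SE; edgeR, unadjusted p = 0.00737, adjusted p = 0.683). For Dot1l(fl/+) against Dot1l(+/+) it was -0.02, with an interval of -0.69 to 0.64. The difference rests on 7, 9 and 6 counts in the Dot1l(fl/fl) libraries, against 15 to 27 in the others. With DESeq2 on the 6 libraries of the 2 genotypes the unadjusted p was 0.0527 against Dot1l(+/+) and 0.0681 against Dot1l(fl/+).

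Calca, which encodes alpha-CGRP and calcitonin, had 4.35, 4.68 and 3.04 CPM in Dot1l(+/+), 3.72, 4.63 and 4.27 in Dot1l(fl/+), while Dot1l(fl/fl) had 3.64, 4.82 and 4.19. The groups overlapped. The log2 fold change of Dot1l(fl/fl) against Dot1l(+/+) was 0.07, with an interval of -0.32 to 0.46. Across the 9 libraries Calca and Calcb had r = 0.196. The difference between the fold changes of the 2 genes was not tested.

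Receptors and relatives of CGRP were listed as 7 genes, all of which passed the filter, and 2 of 7 had an unadjusted p under 0.05 between Dot1l(fl/fl) and Dot1l(fl/+), where 6.48% of all genes had one, and 0 of 7 in each of the other comparisons. Ramp1, the partner that turns the calcitonin receptor-like receptor into a CGRP receptor, was the most abundant, with 41.7 CPM in Dot1l(fl/fl) and 39.1 in Dot1l(+/+) as means. That receptor itself, Calcrl, had 12.8 CPM in Dot1l(fl/fl) and 9.91 in Dot1l(fl/+), a log2 fold change of 0.37 ± 0.11 (SE; edgeR, adjusted p = 0.641). Calcr, the calcitonin receptor, had 1.21 and 2.50 CPM, a log2 fold change of -1.05 ± 0.43 (SE; edgeR, adjusted p = 0.733). It was high, with 3.13 and 3.51 CPM, in the same 2 Dot1l(fl/+) libraries as Isl1. The median of the 7 genes for Dot1l(fl/fl) against Dot1l(+/+) was 0.09.

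Of 20 further genes of choline and acetylcholine handling with the muscarinic receptors, 19 passed the filter. None had an adjusted p under 0.05 in edgeR. At an unadjusted p of 0.05, Dot1l(fl/+) had 1 of them below Dot1l(+/+) and 0 above it, and Dot1l(fl/fl) had 2 below and 0 above, where 8.39% and 3.93% of all genes passed in either direction. The median log2 fold changes were -0.01 and -0.0053. Slc10a4, a vesicular protein of cholinergic and monoaminergic neurons, had 15.6, 16.6 and 13.2 CPM in Dot1l(+/+), 11.7, 12.7 and 9.46 in Dot1l(fl/+), while Dot1l(fl/fl) had 11.9, 12.5 and 11.8. All 6 libraries with a floxed allele lay below the 3 without one. In the 2 comparisons with Dot1l(+/+), the libraries did not overlap for 13.3% and 10.3% of all genes. The share for 6 libraries against 3 was not computed. The log2 fold changes were -0.42 ± 0.12 (SE; edgeR, adjusted p = 0.541) and -0.32 ± 0.12 (SE; edgeR, adjusted p = 0.999). Slc10a4 is also expressed by dopamine neurons, whose 8 markers had median log2 fold changes against Dot1l(+/+) of -0.21 with 1 floxed allele and -0.58 with 2, and the part of that in its level was not tested. Prima1, which anchors acetylcholinesterase in neuronal membranes, had 4.47 CPM in Dot1l(fl/fl) and 5.54 in Dot1l(+/+) (log2 fold change -0.31 ± 0.14, SE; edgeR, adjusted p = 0.999). Lynx1, a modulator of nicotinic receptors, was the most abundant of the list, with 414 and 409 CPM.

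Of 22 genes of motor neuron identity and structure, 15 passed the filter, and none had an adjusted p under 0.05 in edgeR. Next to Dot1l(+/+), Dot1l(fl/+) had 4 of them at a higher and 11 at a lower level (median log2 fold change -0.08), and Dot1l(fl/fl) had 5 and 10 (median -0.05). In each of these comparisons 2 of 15 had an unadjusted p under 0.05, with the lower level in the floxed group, where 8.39% and 3.93% of all genes had one. Between Dot1l(fl/fl) and Dot1l(fl/+) it was 1 of 15, where 6.48% of all genes had one. Tbx3, a T-box factor, had 3.53 CPM in Dot1l(fl/fl) and 5.85 in Dot1l(+/+), a log2 fold change of -0.72 ± 0.20 (SE; edgeR, adjusted p = 0.999). Ret, the GDNF receptor kinase of motor and dopamine neurons, had 108 CPM in Dot1l(fl/fl), 114 in Dot1l(fl/+) and 128 in Dot1l(+/+). All 8 dopamine neuron markers had a lower mean in both floxed groups than in Dot1l(+/+), 3 of them with an unadjusted p under 0.05 in Dot1l(fl/+) while Dot1l(fl/fl) had 7, and the part of this in the level of Ret was not tested. Nefm, a neurofilament, had 508 CPM in Dot1l(fl/+) and 569 in Dot1l(+/+). Sncg, gamma-synuclein, had 21.0 CPM in Dot1l(fl/fl) and 17.7 in Dot1l(fl/+) and was the only one of the list with an unadjusted p under 0.05 between those groups. The most abundant gene was Nefl, another neurofilament, with 897 CPM in Dot1l(fl/fl) and 904 in Dot1l(+/+).

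Of 8 relatives of Ecel1 and genes of nerve injury, 7 passed the filter and 1 had an unadjusted p under 0.05, between Dot1l(fl/+) and Dot1l(+/+), where 8.39% of all genes had one. It was Gal (galanin), with 1.55 CPM in Dot1l(fl/+) and 0.751 in Dot1l(+/+) (log2 fold change 1.05 ± 0.42, SE; edgeR, adjusted p = 0.541), and its highest library, with 2.66 CPM, was again library 1 of Dot1l(fl/+). Gap43, a growth cone protein, was the most abundant, with 229 CPM in Dot1l(fl/fl) and 235 in Dot1l(+/+). Between these genotypes the related endothelin-converting enzymes Ece1 and Ece2 had log2 fold changes of -0.09 and -0.04, where Ecel1 had -0.25. That of Ecel1 ranged from -0.375 to -0.0206 over the 17 alternatives described below.

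The genes whose log2 CPM varied most like that of Chat over the 9 libraries, among 15433 genes with a mean of at least 1 CPM, were Plbd2 (r = 0.937), ENSMUSG00000029333 (r = 0.932), Meis3 (r = 0.931), Ap1b1 (r = 0.928) and Cntn6 (r = 0.926). No other gene of the 9 was among these 5. With the 9 to 21 counts of Chat per library, much of its variation can be counting error, and the list is given as a description. For Ecel1, looked at after its values were seen, the most alike were Slc7a3 (r = 0.981) and Pmch (r = 0.952).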

How the data were processed

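RNA was sequenced on an Illumina NextSeq from 9 libraries. Per the labels' processing notes the authors used bcl2fastq 2.17, Trimmomatic 0.30, the GRCm38.p4 genome and DESeq2 1.10.1. The deposited values were raw read counts per Ensembl gene, made by the authors. The aligner, counting tool, annotation release and strand setting of the counting are not given in the sources used here. The authors' tables of comparisons (mean, log2 fold change, standard error, Wald statistic, p-value, adjusted p-value) were not used.

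Of 47729 identifiers, 47224 had a symbol. Counts were tested with edgeR 4.0.16 (R 4.3.3, limma 3.58.1): filterByExpr by genotype, TMM factors (0.988 to 1.01), a single quasi-likelihood fit of the 9 libraries on genotype alone, and Benjamini-Hochberg adjustment over the 17671 genes kept. Intervals are 95% intervals of that fit. The common biological coefficient of variation was 8.81%. CPM used the TMM-scaled library sizes, and CPM per kb the union of GENCODE M21 exons. DESeq2 1.42.0 was an alternative. The test was tested on simulated data before use. Between replicates the chi-square per degree of freedom was 4.24 to 15.4, over that of counting noise, so no library was counted as a copy. The p-values measure the spread between pooled libraries.

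The 9 genes, the other gene lists and the marker lists were chosen with earlier results of these data known. Besides the 9 genes, listed genes and markers are named when their unadjusted p was under 0.05 in a comparison or when they had the highest level of their list, with the 5 genes most like Chat. Hcrt, Agrp, Sim1, the thalamus markers, Ece1, Ece2, the motor neuron factors and markers given by total count, the habenula markers other than Chrna3 and the genes most like Ecel1 were named after their values were seen. Markers past that rule in other lists included Chrna3, Nkx2-1, Ntrk3, Trh, Pomc, Pmch and Neurod6. Files were read and figures drawn with matplotlib 3.10.9, numpy 2.4.6 and pandas 2.3.3 under Python 3.11.15. Some listed genes are not reported here.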

Additional observations from a re-analysis of the deposited data

How the results depend on the processing

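In all, 17 alternatives were run, 1 of them chosen after the data were seen (without both Dot1l(fl/+) libraries with high Pmch), and the cause of each change below was not tested. Comparisons are given in the order Dot1l(fl/+) against Dot1l(+/+), Dot1l(fl/fl) against Dot1l(+/+), Dot1l(fl/fl) against Dot1l(fl/+), and any difference. None of the 9 genes had an adjusted p under 0.05 except with no filter on low counts, where edgeR called 1, 0, 1 and 2 of them: Isl1 in the first (adjusted p = 0.0415, with up to 0.867 in other alternatives) and Ecel1 in the third (adjusted p = 6.18e-05, with up to 1 in others). At an unadjusted p of 0.05, where 1, 2, 2 and 1 genes passed, no filter gave 2, 2, 4 and 4. DESeq2 on all libraries gave 1 in the second, DESeq2 on the 6 libraries compared gave 0 in the second and 1 in the third, and at least 10 counts in every library, which keeps 6 of the 9 genes and drops Chat, Slc18a3 and Calcb, gave 1 in the second and 1 in the third. Without both high-Pmch libraries the first comparison had 0. Leaving out 1 library at a time gave 0 to 2, 1 to 2, 1 to 4 and 0 to 4.

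Of 27 fold changes, 17 changed sign under at least 1 alternative and 10 under none. Without both high-Pmch libraries, Chat was at -0.178, Isl1 at -0.609, Calcb at 0.377 and Ecel1 at -0.302 in the first comparison, and Chat at 0.123, Ache at 0.0783, Isl1 at 0.676, Calca at -0.134 and Ecel1 at 0.0508 in the third. Calca in the third, at 0.002, became -0.00116 with DESeq2 and -0.000209 with edgeR on the 6 libraries compared, -0.00318 with no filter and -0.00229 with at least 10 counts. With 1 library left out, the first comparison ranged from -0.307 to 0.355 for Chat, -0.0728 to 0.805 for Slc18a3, -0.0753 to 0.0135 for Ache, -0.0234 to 0.265 for Prph, -0.0989 to 0.204 for Calca and -0.29 to 0.107 for Calcb. The second ranged from -0.388 to 0.273 for Chat, -0.284 to 0.198 for Slc5a7, -0.269 to 0.386 for Isl1 and -0.0993 to 0.204 for Calca, and the third from -0.225 to 0.115 for Chat, -0.0915 to 0.0276 for Ache and -0.117 to 0.101 for Calca. Calcb kept its direction in the second (-1.24 to -1.01, unadjusted p of 0.0061 to 0.0527 over the edgeR and DESeq2 alternatives) and in the third (-1.52 to -0.849) in the 16 alternatives that kept it, and Prph in the second (0.263 to 0.551).

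Over all genes, 0 were called in each comparison. DESeq2 on all libraries called 7, 3 and 11, DESeq2 on 6 libraries 45, 8 and 8, edgeR on 6 libraries 1 and 4 in the first and second, no filter 251, 118, 164 and 337, and the fit without both high-Pmch libraries, in which a lone library stands for Dot1l(fl/+), 247, 4, 189 and 70. Leaving out 1 library gave 0 to 5, 0 to 4, 0 to 12 and 0 to 13. At an unadjusted p, where 1483, 694, 1145 and 1138 genes passed, DESeq2 on 6 libraries gave 959 in the first and 653 in the third, no filter 1210 in the second, 1795 in the third and 2026 in the last, and the fit without both high-Pmch libraries 2997 in the first, 2547 in the third and 2436 in the last. Leaving out 1 library gave 976 (without Dot1l(+/+) replicate 3) to 2235 (without Dot1l(fl/+) replicate 1), 382 to 942, 876 to 1752 and 772 to 1691.

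The study's methods say that each pool used paired sets of the genotypes from a nest, but no source used here says that the replicate numbers mark those sets. The numbers were not taken to pair the libraries, since same-numbered libraries deviated together with correlations of 0.022 to 0.317 and only 6 of 9 pairs were over 0.1, while 6 of 9 libraries correlated best with their own number. With the replicate number as a block, 1 of the 9 genes in the second comparison (Calcb, while Prph was lost) and 3 in the test of any difference had an unadjusted p under 0.05, Calca in the third was at -0.0064, and over all genes 3, 3 and 3 were called in the second, the third and the last. Depth limits Slc18a3, Calcb, Chat and Isl1 most, which had the fewest counts.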
